A study of Mus musculus with 8 samples.

Results

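Transcripts of 9 genes that release, degrade or sense nucleotides outside the cell were compared between CD103Tg and B6 CD8 T cells. The genes were chosen by name, with earlier results of these data known. Among them were the ectoenzyme genes Entpd1, Nt5e and Cd38, the ADP-ribosyltransferase gene Art2b and the adenosine deaminase gene Ada. The others were the channel gene Panx1 and the receptor genes P2rx7, P2rx4 and Adora2a. All 9 were listed among the 13245 genes of the deposited table, and all 9 passed the filter on low values and were tested. RNA-seq was done on 8 libraries, 4 from CD103Tg mice and 4 from B6 (C57BL/6) mice, each made from lymph node CD8 T cells sorted as Ly6C+CXCR3+, cells that the submitters call memory phenotype. Per the labels, CD103Tg mice overexpress CD103, the integrin subunit whose gene is Itgae and which pairs with beta 7 to bind E-cadherin. The labels and other sources used here do not state the promoter of the transgene, the age or sex of the mice, or whether each library came from 1 animal or a pool. The p-values therefore rest on the spread among these 8 libraries, which may be technical in part.

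ATP leaves stressed or activated cells through channels such as pannexin-1, and in T cells it opens ion channels of the P2X family. The ectoenzyme CD39 (Entpd1) removes phosphates from ATP and ADP to give AMP, and CD73 (Nt5e) converts AMP into adenosine, which acts through the receptor encoded by Adora2a to raise cyclic AMP and dampen T cell activation. Adenosine deaminase (Ada) removes adenosine by turning it into inosine. NAD is a second extracellular substrate: CD38 cleaves it, and in mice the ADP-ribosyltransferase ARTC2.2 (Art2b) uses it to modify surface proteins, P2X7 among them, which gates the channel and can kill the cell.

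The libraries held 50187279 to 56371476 estimated reads over the listed genes. The overexpressed gene, Itgae, stood at 3469 to 5509 CPM in CD103Tg libraries and 37.5 to 174 CPM in B6 libraries. Of 10 genes of CD8 T cell identity and of the sort, 9 were tested. Trac and Cd8a fell, by 0.64 ± 0.07 and 0.24 ± 0.05 on the log2 scale, and the other 7, Cxcr3, Ly6c2, Cd44 and Cd3e among them, did not pass the test. That is 22.2% called, against 31.2% of all tested genes. The Y-linked genes Ddx3y, Eif2s3y, Kdm5d and Uty were at 0 to 0.0192 CPM in B6 replicate 3 and at 8.39 to 139 CPM in every other library. Xist stood at 72.0 CPM in that library and at 21.7 to 45.2 CPM in CD103Tg replicates 1, 3 and 4, which carried Y-linked transcripts as well. It was at 0.0231 CPM in CD103Tg replicate 2, and at 0.0214, 0.039 and 1.71 CPM in B6 replicates 1, 2 and 4. CD103Tg replicates 1, 3 and 4 thus held RNA of both sexes, and sex was not balanced between the groups. Whether this came from pooling was not tested. Genes that answer to the handling of cells, such as Fos, Egr1 and Hspa1a, summed to 547 to 1378 CPM in CD103Tg and 525 to 2320.1 CPM in B6. Within each group replicate 4 was highest in this sum. Of the 8 tested, only Egr1 was called, which is 12.5%, against 31.2% of all tested genes. Egr1 stood at 15.9 to 22.2 CPM in CD103Tg and 41.8 to 62.7 CPM in B6. Its log2 fold change was -1.47 ± 0.13 (limma adjusted p = 9.56e-06). In B6, Egr1 was highest in replicate 2, where the sum was lowest, and lowest in replicate 4, where the sum was highest. In CD103Tg, replicate 4 was highest in both.

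Of the 9 genes, 7 were higher in CD103Tg cells, 1 (P2rx4) was lower and 1 (Art2b) did not pass (limma-trend on log2(CPM + 1), Benjamini-Hochberg over 11503 tested genes). The background was 31.2% of all tested genes called, with 17.4% called higher and 13.8% called lower. The median log2 fold change was 0.75 over the 9 genes, against -0.005 over all tested genes. Because the 9 genes were chosen with earlier results of these data known, these contrasts are descriptions and not a test. Entpd1, Cd38 and Nt5e changed at least 2-fold on this scale, as did 4.96% of tested genes. The CD103Tg and B6 values did not overlap in 8 of the 9 genes, and 31.0% of all tested genes showed no overlap either. For each of those 8 genes the exact two-sided permutation test over 70 assignments gave p = 0.0286, the smallest it allows.

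**Figure D1:**
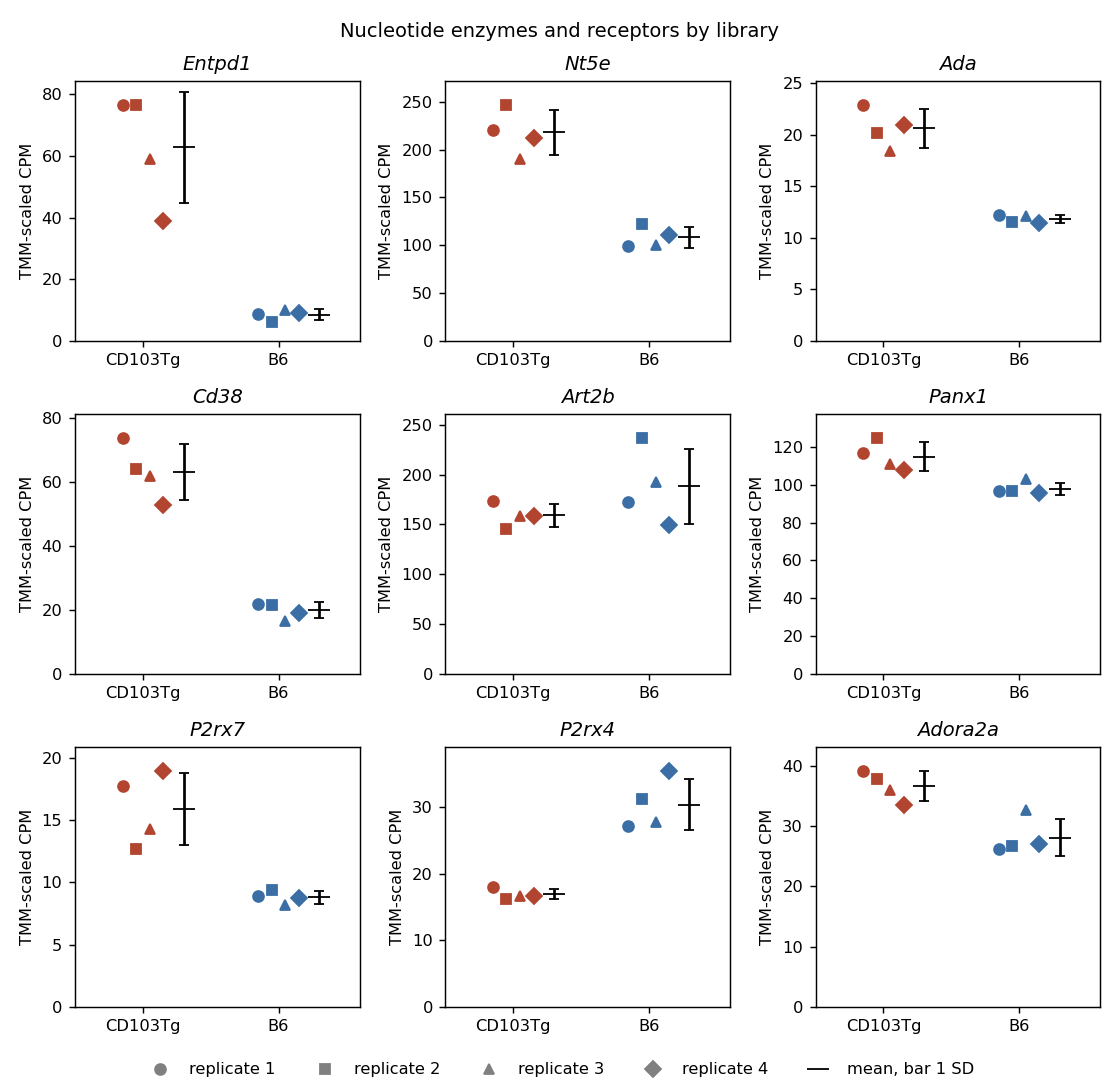
TMM-scaled CPM of the 9 genes (vertical axes from 0) in the 4 CD103Tg libraries (red) and the 4 B6 libraries (blue), with marker shape giving the replicate number and black bars the mean with 1 SD. The groups are apart in every panel other than Art2b, among the separated panels only P2rx4 has CD103Tg lower, and in Entpd1 CD103Tg replicate 4 is the lowest of its group at 38.9 CPM.

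The largest difference was in Entpd1, the gene of CD39 (GRCm38 chromosome 19, 40612366 to 40741602, plus strand). It was at 76.7, 76.7, 59.1 and 38.9 CPM in CD103Tg replicates 1 to 4, against 8.65, 6.08, 10.05 and 9.0 CPM in B6 replicates 1 to 4. The lowest CD103Tg library was above the highest B6 library, and within CD103Tg replicate 4 was lowest. The means were 62.8 ± 18.0 CPM in CD103Tg and 8.44 ± 1.68 CPM in B6 (SD, n = 4 each), a log2 fold change of 2.73 ± 0.20 (SE; limma adjusted p = 4.0e-06). The 95% interval was 2.28 to 3.17, and among all tested genes Entpd1 ranked 32 by log2 fold change, counted from the highest, with Itgae at 1. These means rest on 2033 to 3787 estimated reads per CD103Tg library and 312 to 527 per B6 library.

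Nt5e encodes CD73, the enzyme that acts after CD39 (chromosome 9, 88327197 to 88372092, plus strand). Its values were 220.3, 247, 190.4 and 212 CPM in CD103Tg replicates 1 to 4, against 99.4, 122, 99.7 and 111 CPM in B6 replicates 1 to 4. Every CD103Tg library was above every B6 library, with a similar relative spread in both groups. The log2 fold change was 1.00 ± 0.09, with a 95% interval of 0.81 to 1.19 (limma adjusted p = 1.04e-05). Per kb of annotated exon, Nt5e stood at 25.3 ± 2.74 CPM per kb in CD103Tg and 12.5 ± 1.25 in B6, while Entpd1 stood at 11.3 ± 3.22 and 1.51 ± 0.301 CPM per kb. Within libraries the per-kb level of Nt5e was 1.86 to 3.54 times that of Entpd1 in CD103Tg and 6.44 to 13.01 times in B6. Per kb, Entpd1 transcripts were the scarcer of the pair in all 8 libraries.

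Ada, whose product degrades adenosine (chromosome 2, 163726584 to 163750239, minus strand), rose as well. It was at 22.9, 20.1, 18.4 and 20.9 CPM in CD103Tg and at 12.2, 11.5, 12.1 and 11.4 CPM in B6, with no overlap and a B6 range of less than 1 CPM. The log2 fold change was 0.75 ± 0.08 (limma adjusted p = 5.52e-05). Per kb, Nt5e was 2.23 to 2.86 times Ada in the CD103Tg libraries and 1.89 to 2.46 times in the B6 libraries, ranges that overlap.

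Cd38, the gene of the NAD-cleaving ectoenzyme (chromosome 5, 43868553 to 43912375, plus strand), showed the second largest rise. Its values were 73.8, 63.9, 61.8 and 52.6 CPM in CD103Tg replicates 1 to 4, against 21.9, 21.4, 16.6 and 19.1 CPM in B6 replicates 1 to 4. The lowest CD103Tg library stood far above the highest B6 library. This was a log2 fold change of 1.62 ± 0.11, with a 95% interval of 1.38 to 1.87 (limma adjusted p = 2.50e-06). Bst1, which encodes the related enzyme CD157 and lies 24.6 kb away on the same strand, was at 0.410 to 0.651 CPM in CD103Tg and 0.0383 to 0.429 CPM in B6, below the filter on low values.

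The promoters of these ectoenzyme genes, the 3 genes that changed at least 2-fold, are shown to compare their sequence (RefSeq, GRCm38.p6, 250 bases before to 50 bases after the start, read along the gene's strand). Capitals mark matches on either strand to any of 8 motifs: GCGTG (the aryl hydrocarbon receptor core), TGACGTCA (cyclic AMP response element), the interferon-stimulated response element, TGANTCA (AP-1), TTCNNNGAA (STAT), TGTGGT (RUNX), CAGACA (SMAD) and CCACCC (KLF). No matches overlapped each other in these sequences.
Entpd1 promoter, upstream start, chr19:40612116-40612415, plus strand: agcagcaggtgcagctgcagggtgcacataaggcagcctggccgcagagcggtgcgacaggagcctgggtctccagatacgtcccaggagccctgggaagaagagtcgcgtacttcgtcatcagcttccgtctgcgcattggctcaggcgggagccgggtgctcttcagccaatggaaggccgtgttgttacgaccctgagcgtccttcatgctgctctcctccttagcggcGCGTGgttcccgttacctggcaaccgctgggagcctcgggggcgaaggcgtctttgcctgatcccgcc
Nt5e promoter, chr9:88327359-88327658, plus strand: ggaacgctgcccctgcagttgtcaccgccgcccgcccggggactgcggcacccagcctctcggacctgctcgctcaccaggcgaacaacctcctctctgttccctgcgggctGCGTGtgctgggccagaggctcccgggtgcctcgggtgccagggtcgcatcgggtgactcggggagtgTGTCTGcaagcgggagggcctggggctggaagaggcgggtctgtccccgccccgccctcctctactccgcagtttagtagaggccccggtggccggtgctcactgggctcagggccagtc
Cd38 promoter, chr5:43868559-43868858, plus strand: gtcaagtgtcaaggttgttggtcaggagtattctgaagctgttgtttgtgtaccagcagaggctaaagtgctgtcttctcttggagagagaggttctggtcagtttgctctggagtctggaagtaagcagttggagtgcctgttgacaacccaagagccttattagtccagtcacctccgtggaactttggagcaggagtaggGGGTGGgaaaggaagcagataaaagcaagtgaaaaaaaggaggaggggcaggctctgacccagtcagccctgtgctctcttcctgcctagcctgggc
The Entpd1 and Nt5e sequences each held GCGTG, at -18 to -14 and -138 to -134 from the start, a motif found in 32.4% of all 32851 promoters of this length. The Nt5e sequence also held CAGACA, read from the other strand as TGTCTG (-70 to -65), which 21.0% of promoters hold. The Cd38 sequence held CCACCC, read from the other strand as GGGTGG (-47 to -42), which 31.5% of promoters hold, and none of the other motifs. The Entpd1 and Nt5e sequences had 23 CpG pairs each and the Cd38 sequence had 1, against a median of 7 over all promoters. A second Entpd1 start, with its promoter at chr19:40659520-40659819, held TGTGGT as its only match. The table gives 1 value per gene, so use of the Entpd1 starts cannot be told apart. The Nt5e and Cd38 sequences shown lie wholly inside the gene spans given above, whose annotated starts are further upstream. Their motif positions and CpG counts are those of the RefSeq starts, which may not be the ones these cells used.

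Art2b, the gene of the NAD-using transferase ARTC2.2 (chromosome 7, 101576970 to 101585600, minus strand), did not pass the test. Its values were 173, 145, 158 and 158 CPM in CD103Tg replicates 1 to 4, against 172, 237, 192 and 149.5 CPM in B6 replicates 1 to 4. The groups overlapped, and the B6 spread was set by replicates 2 and 4 at its ends. The log2 fold change was -0.22 ± 0.12, with a 95% interval of -0.48 to 0.03 (limma adjusted p = 0.177; exact permutation p = 0.2). Without B6 replicate 4 the fall passed, at -0.32 (limma adjusted p = 0.033), and without both replicates numbered 4 it was also -0.32 (adjusted p = 0.0477). Its close copy Art2a-ps, a pseudogene in this annotation 16.1 kb away, was at 0.721 to 0.850 CPM in CD103Tg and 0.332 to 0.988 CPM in B6. Of the 50-base words of the annotated Art2b transcripts, 15.1% of those in Art2b-201 and 5.05% of those in Art2b-202 also occur in Art2a-ps. How far this leaves the division of reads between them uncertain was not tested.

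Panx1, which encodes the ATP release channel pannexin-1 (chromosome 9, 15002128 to 15045478, minus strand), showed the smallest rise. It was at 117, 125, 111 and 108 CPM in CD103Tg and 96.7, 96.7, 103 and 95.5 CPM in B6. The groups did not overlap, but CD103Tg replicate 4 lay only just above B6 replicate 3. Its log2 fold change was 0.23 ± 0.06, with a 95% interval of 0.11 to 0.36 (limma adjusted p = 0.00945).

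The P2X receptor genes, which lie 16.1 kb apart on the plus strand of chromosome 5, changed in opposite directions. P2rx7 (122643911 to 122691432), the ATP-gated channel that ARTC2.2 can also activate, was at 17.8, 12.7, 14.3 and 19.0 CPM in CD103Tg replicates 1 to 4, against 8.89, 9.38, 8.17 and 8.71 CPM in B6 replicates 1 to 4. All CD103Tg libraries were above the B6 libraries, and replicates 1 and 4 were the highest. On the log2 scale the difference was 0.78 ± 0.12, with a 95% interval of 0.51 to 1.04 (limma adjusted p = 0.000602).

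P2rx4 (122707544 to 122729738) encodes an ATP-gated channel of higher ATP sensitivity. It was at 18.0, 16.2, 16.7 and 16.7 CPM in CD103Tg replicates 1 to 4, against 27.2, 31.3, 27.8 and 35.5 CPM in B6 replicates 1 to 4. All CD103Tg libraries were below the B6 libraries and close to one another. On the log2 scale the difference was -0.80 ± 0.09, with a 95% interval of -1.0 to -0.61 (limma adjusted p = 5.58e-05). Per kb, P2rx4 was 0.749 to 1.09 times P2rx7 in the CD103Tg libraries and 2.60 to 3.46 times P2rx7 in the B6 libraries. The channel that was the more abundant transcript in B6 was thus about level with the other in CD103Tg.

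**Figure D2:**
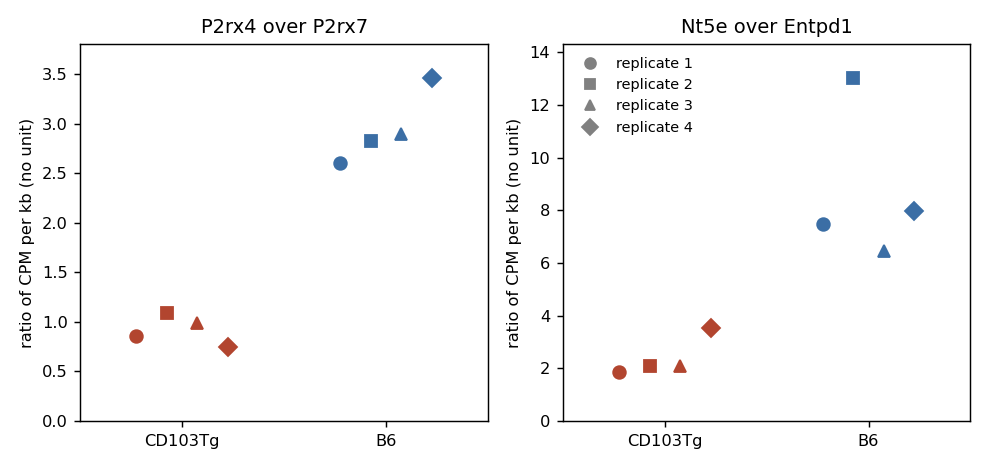
Ratio of levels per kb within each library (no unit, axes from 0) for P2rx4 over P2rx7 and Nt5e over Entpd1, CD103Tg in red and B6 in blue, marker shape giving the replicate number. The P2rx4 ratio was 0.749 to 1.09 in CD103Tg and 2.60 to 3.46 in B6, and the Nt5e ratio 1.86 to 3.54 in CD103Tg and 6.44 to 13.01 in B6.

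The promoters of these neighbouring genes are printed because they moved in opposite directions, with the same marking of motif matches.
P2rx7 promoter, upstream start, chr5:122643677-122643976, plus strand: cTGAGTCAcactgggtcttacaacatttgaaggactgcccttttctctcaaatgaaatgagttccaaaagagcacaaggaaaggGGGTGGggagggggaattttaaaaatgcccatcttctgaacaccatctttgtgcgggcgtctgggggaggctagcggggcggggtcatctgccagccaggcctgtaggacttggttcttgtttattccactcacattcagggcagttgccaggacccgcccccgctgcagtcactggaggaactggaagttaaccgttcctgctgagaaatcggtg
P2rx4 promoter, chr5:122707294-122707593, plus strand: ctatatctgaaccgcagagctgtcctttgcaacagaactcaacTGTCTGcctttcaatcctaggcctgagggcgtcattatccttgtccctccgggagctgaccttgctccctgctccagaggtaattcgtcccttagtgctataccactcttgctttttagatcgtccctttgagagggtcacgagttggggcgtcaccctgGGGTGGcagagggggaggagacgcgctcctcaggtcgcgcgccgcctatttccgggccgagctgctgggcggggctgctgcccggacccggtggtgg
The P2rx7 sequence held TGANTCA as TGAGTCA (-249 to -243), found in 7.81% of all promoters, and CCACCC as GGGTGG (-166 to -161). The P2rx4 sequence held CAGACA as TGTCTG (-207 to -202) and CCACCC as GGGTGG (-47 to -42). It had 18 CpG pairs, against 8 in the P2rx7 sequence. A second P2rx7 promoter (chr5:122650133-122650432) had none of the 8 motifs and 4 CpG pairs. Use of the P2rx7 starts cannot be told apart either, so the sequence compared with P2rx4 may not be the one these cells used. Exons of P2rx7 overlap the miRNA gene Mir8115, and no exon of the other 8 genes overlaps another annotated gene.

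Adora2a, which encodes the adenosine receptor coupled to the stimulatory G protein (chromosome 10, 75316877 to 75334784, plus strand), rose by a small amount. It was at 39.2, 37.9, 36.0 and 33.5 CPM in CD103Tg replicates 1 to 4, against 26.2, 26.7, 32.7 and 27.0 CPM in B6 replicates 1 to 4. The groups did not overlap, with B6 replicate 3 close to CD103Tg replicate 4. Its log2 fold change was 0.37 ± 0.08, with a 95% interval of 0.19 to 0.56 (limma adjusted p = 0.00606). B6 replicate 3 is the library with Y-linked genes near 0, and the adjusted p was 0.00169 without it and 0.00403 with the Y-linked level as a covariate.

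**Figure D3:**
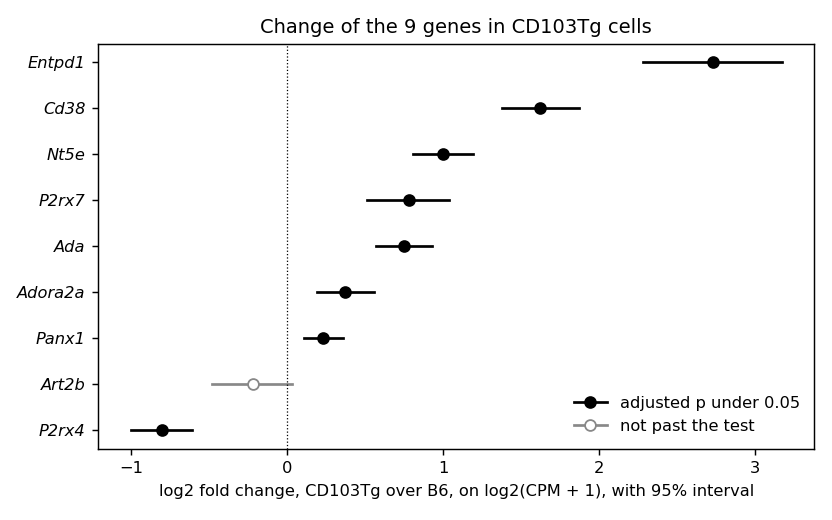
Log2 fold change of the 9 genes, CD103Tg over B6 on the log2(CPM + 1) scale (horizontal axis), with 95% intervals from the limma fit and filled points for an adjusted p under 0.05. Entpd1 lies at 2.73, P2rx4 at -0.80, and the interval of Art2b, -0.48 to 0.03, is the only one that includes 0.

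Ordered by level per kb of exon, Art2b was highest in both groups, at 56.1 ± 4.09 CPM per kb in CD103Tg and 66.3 ± 13.2 in B6 (SD, n = 4 each). In CD103Tg it was followed by Nt5e (25.3), Panx1 (19.1), Cd38 (16.2), Adora2a (11.97), Entpd1 (11.3), Ada (10.3), P2rx7 (2.67) and P2rx4 (2.41 CPM per kb). In B6 the order was Panx1 (16.2), Nt5e (12.5), Adora2a (9.19), Ada (5.90), Cd38 (5.08), P2rx4 (4.33), Entpd1 (1.51) and P2rx7 (1.47 CPM per kb). Neighbours whose library ranges overlapped were Panx1 with Cd38, Adora2a with Entpd1, Entpd1 with Ada and P2rx7 with P2rx4 in CD103Tg, and Cd38 with P2rx4 and Entpd1 with P2rx7 in B6. The exon length is that of all annotated exons joined, and not of the transcripts these cells used.

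CD39, CD73 and CD38 are also found on B cells, plasma cells, myeloid cells and regulatory T cells, whose markers were measured in the same libraries. In bulk samples more transcript per cell and more cells of a type cannot be told apart. The marker counts stand beside 31.2% of all tested genes called, with 17.4% called higher and 13.8% called lower. Of 8 plasma cell genes, 5 were tested and all 5 were higher in CD103Tg. The B6 means of these 5 were 0.19 to 0.57 CPM, so they passed the filter of 1 CPM only through CD103Tg. Their direction thus followed from the filter, and the count is not a result. The 6 listed ones summed to 32.6, 101, 28.4 and 14.5 CPM in CD103Tg replicates 1 to 4, against 1.12, 3.86, 0.786 and 0.478 CPM in B6 replicates 1 to 4. Cd38 in the same CD103Tg libraries was at 73.8, 63.9, 61.8 and 52.6 CPM, so replicate 4 was lowest in both, while replicate 2 was highest in the sum and replicate 1 in Cd38. Ighg2c was at 0 in B6 replicates 1, 3 and 4, and Igha in B6 replicate 3.

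Of 14 B cell genes, 12 were listed and 8 tested, of which 4 were higher, 2 lower and 2 did not pass. Of the higher genes, Cd79a and Ebf1 had B6 means of 0.585 and 0.0657 CPM and passed the filter only through CD103Tg. The 12 listed genes summed to 492 to 639 CPM in CD103Tg and 850 to 940.1 CPM in B6, most of it Ighm. The defining gene Ms4a1 stood at 0.745 to 1.76 CPM in CD103Tg and 0.0975 to 0.383 CPM in B6. Of 15 macrophage, monocyte and dendritic cell genes, 6 were tested, of which 2 were higher and 4 did not pass. That is 33.3% called, near the share over all tested genes. Of the higher genes, Siglech had a B6 mean of 0.217 CPM and passed the filter only through CD103Tg. The 9 listed ones summed to 85.1, 100.3, 35.2 and 19.2 CPM in CD103Tg replicates 1 to 4, against 16.9, 68.1, 15.3 and 7.74 CPM in B6 replicates 1 to 4, and the groups overlapped. Within CD103Tg, replicates 1 and 2 were highest and replicate 4 lowest both in this sum and in Entpd1 (76.7, 76.7, 59.1 and 38.9 CPM). Within B6, replicate 2 was highest in the sum and lowest in Entpd1 (8.65, 6.08, 10.05 and 9.0 CPM). Of 7 CD4 and regulatory T cell genes, Il2ra and Capg were higher among 3 tested. The defining genes Cd4 and Foxp3 were not listed in the deposited table. Zbtb7b, below the filter, was lower, at 0.115 to 0.407 CPM in CD103Tg and 0.409 to 1.43 CPM in B6. The sums were 55.8 to 75.0 CPM in CD103Tg and 23.7 to 28.0 CPM in B6, most of it Capg. Of 8 natural killer genes, 4 of 5 tested were higher, with sums of 33.9 to 70.2 CPM in CD103Tg and 13.4 to 17.0 CPM in B6. Gzma alone was at 17.1 to 49.4 CPM in CD103Tg, and Klra8 (B6 mean 0.885 CPM) passed the filter only through CD103Tg. Klra4, below the filter, went the other way, at 0 to 0.081 CPM in CD103Tg and 1.32 to 2.42 CPM in B6. The defining gene Ncr1 was at 0.183 to 0.613 CPM in CD103Tg and 0.345 to 0.660 CPM in B6. Of 8 gamma delta T cell genes, 3 of 5 tested were higher, with sums of 111 to 151 CPM in CD103Tg and 77.6 to 108 CPM in B6, and Trdc did not pass. Granulocyte genes (4 of 8 listed, 0 tested) summed to 1.06 to 6.58 CPM in CD103Tg and 0.427 to 4.08 CPM in B6. Of 4 tested erythroid genes 0 were called, and of 8 stromal genes Pecam1, the only one tested, fell. The part of these cell types in the rises of Entpd1, Nt5e and Cd38 was not tested. Leaving out each library in turn left the log2 fold change of Entpd1 at 2.59 to 2.94, of Cd38 at 1.54 to 1.70 and of Nt5e at 0.94 to 1.07.

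For each of the 8 called genes, the tested genes with the most similar profile were found by the root mean square difference of log2(CPM + 1) over the 8 libraries, after centring each gene on its mean. Those nearest to Entpd1 were the chemokine receptor gene Ccr2 (a difference of 0.147), Nccrp1 (0.224) and the potassium channel gene Kcnk5 (0.225). Ccr2 was at 260.3 ± 61.0 CPM in CD103Tg and 35.6 ± 2.94 CPM in B6. The nearest to Nt5e were Klf10 (0.075), Syne3 (0.118) and Cenpi (0.119), and those to Cd38 were Wdr31 (0.122), Fam129b (0.124) and the thrombin receptor gene F2r (0.142). Ada was closest to Ddit3 (0.071), Rnf19b (0.0762) and Lgals3bp (0.0817), and Panx1 to Frmd8 (0.0246), Rab19 (0.0281) and Aaas (0.0324). P2rx7 was closest to Cenpp (0.10), Ankrd6 (0.108) and Rmi2 (0.123), P2rx4 to Krba1 (0.0872), Sntb1 (0.0890) and Kcnc1 (0.0903), and Adora2a to Srp19 (0.0439), Higd1a (0.0538) and Smdt1 (0.0550). These are descriptions of likeness in 2 groups of 4, where any genes with a similar difference between the groups lie close.

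The wider pathway was followed in 7 lists of 154 gene symbols, a few of them other names of the same gene. Of the symbols, 113 were listed and 104 tested. Of these, 27 rose, 22 fell and 55 did not pass, so 47.1% were called, against 31.2% of all tested genes, and the median log2 fold change was 0.05. Without CD103Tg replicate 3 the falls numbered 13.

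**Figure D4:**
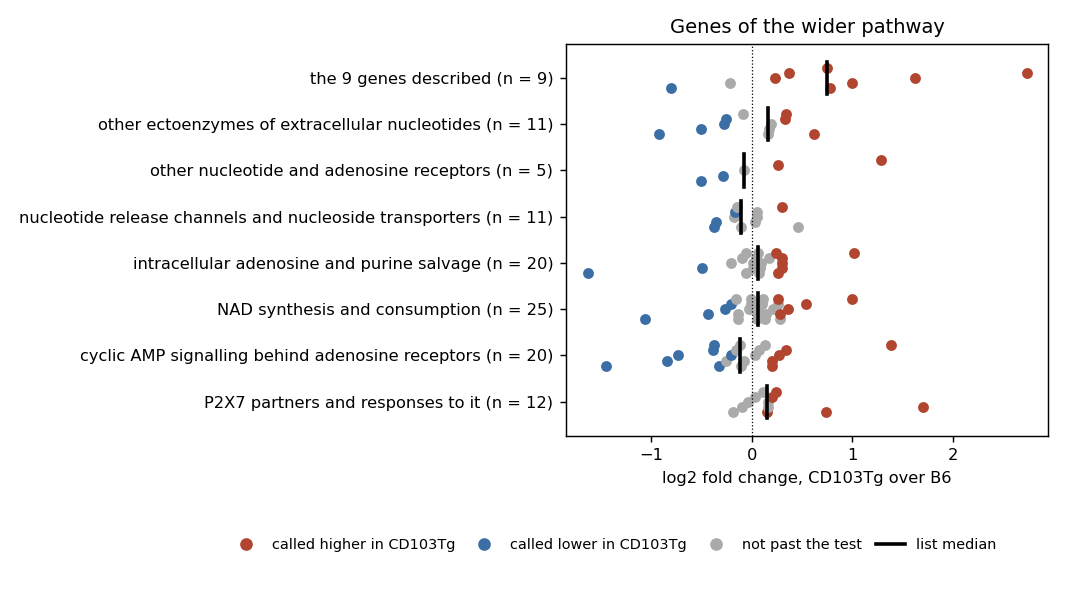
Log2 fold changes, CD103Tg over B6, of the tested genes of each pathway list (rows, n in brackets), red for called higher, blue for called lower, grey for not past the test, black bars for list medians. The 9 genes described have a median of 0.75, while the medians of the 7 lists lie between -0.12 and 0.16. Both the 9 genes and the lists were chosen with earlier results of these data known.

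Of 24 symbols of other ectoenzymes and related genes, 11 were tested: 3 rose, 4 fell and 4 did not pass, with a median of 0.16. Acp3 and Art2a, other names of Acpp and Art2a-ps, are counted in the 24 and were not listed. Enpp1, which cleaves ATP to AMP and pyrophosphate, fell by 0.50 ± 0.09 (limma adjusted p = 0.00211). Acpp, a phosphatase that can also make adenosine from AMP, fell to 16.8, 17.7, 10.1 and 17.0 CPM in CD103Tg, against 29.4, 31.4, 22.5 and 36.2 CPM in B6 (log2 fold change -0.92 ± 0.18, adjusted p = 0.00241). Entpd5, a relative of Entpd1 that acts in the endoplasmic reticulum, fell by 0.28 ± 0.06, and Enpp4 rose by 0.34 ± 0.07. Entpd4b, a near copy of Entpd4, was at 0.19 ± 0.08 (adjusted p = 0.0825), and reads may be divided between the 2 copies. Other than Entpd1, Nt5e and Cd38, no gene of this kind that was tested changed as much as 2-fold.

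Of 20 other nucleotide and adenosine receptor genes and their relatives, 7 were listed and 5 tested: 2 rose, 2 fell and 1 did not pass, with a median of -0.08. The 4 called genes were Gpr34 (log2 fold change 1.28 ± 0.15, limma adjusted p = 6.79e-05), Gpr174 (-0.50 ± 0.06), Gpr171 (0.26 ± 0.07) and P2ry10b (-0.29 ± 0.09), all relatives of the P2Y receptors rather than established receptors for nucleotides. Gpr34 was at 9.07 to 12.6 CPM in CD103Tg and 2.92 to 4.99 CPM in B6. P2ry10 was at -0.08 ± 0.08 (adjusted p = 0.508). P2ry10b lost its call without CD103Tg replicates 2 or 3 or B6 replicates 1 or 3 (adjusted p = 0.111, 0.0773, 0.0988 and 0.0858), which left 1 fall, and Gpr171 lost its call without both replicates numbered 4 (0.0523). P2ry13 and P2ry14, receptors for ADP and for UDP-sugars, were below the filter, P2ry14 at 0.729 to 1.67 CPM in CD103Tg and 0.214 to 0.580 CPM in B6.

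Of 19 release channel and nucleoside transporter genes, 11 were tested: 1 rose, 3 fell and 7 did not pass, with a median of -0.11. The equilibrative transporter gene Slc29a1, which carries adenosine across the membrane, rose by 0.30 ± 0.06 (limma adjusted p = 0.00345), and the sodium-driven transporter gene Slc28a2 fell by 0.38 ± 0.05 (adjusted p = 0.000228). Slc28a2 was at 132 to 146 CPM in CD103Tg and 171 to 186 CPM in B6. The volume-regulated channel gene Lrrc8b (-0.36 ± 0.12) and the scramblase gene Ano6 (-0.17 ± 0.06) also fell, and Xkr8 was at 0.46 ± 0.19 (adjusted p = 0.087). The falls numbered 1 without CD103Tg replicate 1 or 3 or B6 replicate 2 or 4, and the rises 2 without CD103Tg replicate 4 or B6 replicate 4, when Xkr8 passed. Lrrc8b alone was also lost without CD103Tg replicate 2 (0.116) or B6 replicate 1 (0.0982), and Ano6 without B6 replicate 3 (0.0777).

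Of 26 genes of purine salvage inside the cell, 20 were tested: 6 rose, 2 fell and 12 did not pass, with a median of 0.06. Samhd1, which breaks down deoxynucleotides and is an interferon-stimulated gene, was at 386 to 415 CPM in CD103Tg and 173 to 213 CPM in B6 (log2 fold change 1.02 ± 0.07, limma adjusted p = 1.96e-06). Adk, the adenosine kinase gene, fell by 0.49 ± 0.08 (adjusted p = 0.000729), with no overlap, at 31.4 to 39.3 CPM in CD103Tg and 47.7 to 53.4 CPM in B6. The nucleotidase gene Nt5c3b rose by 0.30 ± 0.06. Ak3 was at 0.17 ± 0.08 (adjusted p = 0.119).

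Of 28 genes of NAD synthesis and use, 25 were tested: 5 rose, 4 fell and 16 did not pass, with a median of 0.06. Parp12 (1.00 ± 0.09, limma adjusted p = 1.19e-05), Parp9 (0.54 ± 0.09) and Parp10 (0.28 ± 0.06), ADP-ribosyltransferase family genes that act inside the cell and are induced by interferon, rose. Nmnat2, which makes NAD in the cytosol, fell, with 4.03 to 6.45 CPM in CD103Tg and 11.04 to 14.8 CPM in B6 (-1.06 ± 0.15, adjusted p = 0.000312), while Nmnat1 was at 0.26 ± 0.10 (adjusted p = 0.066). The rises numbered 3 without CD103Tg replicate 2 or B6 replicate 2 or 3, and the falls 2 without CD103Tg replicate 1 or 3 or B6 replicate 1, 2 or 3. With quantile normalization or equal totals 3 rose.

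Of 21 genes of cyclic AMP signalling, which lies behind the Adora2a receptor, 20 were tested: 5 rose, 7 fell and 8 did not pass, with a median of -0.12. The 4 called genes with the smallest p-values were phosphodiesterase genes, whose products break down cyclic AMP. Pde8a fell, with 4.39 to 5.35 CPM in CD103Tg and 12.7 to 18.0 CPM in B6 (log2 fold change -1.45 ± 0.12, limma adjusted p = 6.23e-06). Pde4d fell by 0.84 ± 0.12 and Pde4b by 0.39 ± 0.07, while Pde4a rose by 1.38 ± 0.17, at 3.06 to 6.11 CPM in CD103Tg and 1.17 to 1.40 CPM in B6. Crem was at -0.26 ± 0.11 (adjusted p = 0.0988). The rises numbered 3 without CD103Tg replicate 2, 3 or 4 or B6 replicate 2, and the falls 4 without CD103Tg replicate 3.

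Of 16 genes that act with or after P2X7, 12 were tested: 5 rose, 0 fell and 7 did not pass, with a median of 0.15. That is 41.7% called, against 31.2% of all tested genes called and 17.4% called higher. Casp1, the inflammatory caspase gene, was at 16.1, 12.6, 18.3 and 9.29 CPM in CD103Tg and 3.24, 2.87, 3.78 and 4.25 CPM in B6 (1.70 ± 0.18, limma adjusted p = 4.50e-05). The calpain gene Capn2 rose by 0.74 ± 0.08, Stim2 by 0.20 ± 0.06 and Gsdmd, the gene of gasdermin D, by 0.24 ± 0.08. Pycard, the inflammasome adaptor gene, was at 0.16 ± 0.07 (adjusted p = 0.0994), and Il1b was below the filter. The rises numbered 3 without CD103Tg replicate 1, 2 or 3 or B6 replicate 4, 2 without B6 replicate 3, 2 with equal totals and 3 with quantile normalization, Stim2 and Gsdmd being lost in several of these. Casp1 and Capn2 were each apart between the groups in all 8 libraries.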

How the data were processed

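Expression was measured by RNA-seq in 4 CD103Tg and 4 B6 libraries. Per the labels' protocols, column-purified RNA went into SMART-Seq v4 cDNA and Nextera XT libraries, which carry no molecular identifiers and do not mark the strand. Tools listed in the submitters' processing notes are bcl2fastq 2.17, cutadapt 1.18, STAR 2.7.0f and RSEM, and builds listed are GRCm38 and mm10. The authors deposited a normalized gene-level signal, named in the labels as TMM-scaled CPM of filtered genes; no source used here gives their filter. All 13245 gene IDs matched GENCODE M21, the source of coordinates and exon lengths.

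From the steps between deposited values, 1 read was worth 0.0171 to 0.0203 CPM, which gave the estimated reads; 62.9% to 65.1% of values were whole reads to within 0.005. The fit took log2(CPM + 1) of the 11503 genes averaging 1 CPM or more (limma 3.58.1, R 4.3.3, trended eBayes with genotype alone, Benjamini-Hochberg, threshold 0.05). Adding 1 CPM shrinks the fold changes of low genes. A positive value is higher in CD103Tg. The fit was tested on simulated data. Python 3.11.15, numpy 2.4.6, pandas 2.3.3 and matplotlib 3.10.9 did the rest.

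The genes, lists and tests were chosen with earlier results of these data known. Named are all 9 genes, the called genes with the 4 smallest p-values of each pathway list and the uncalled gene with the smallest, and the 3 most similar profiles of each called gene (predicted models, pseudogenes and receptor variable segments left out). Marker genes, genes below the filter and those of the closing observations were picked for their role or after their values were seen. Some genes that this rule or the marker lists include are not reported here. RefSeq promoters were found for 8 of the 9 genes. Other settings tried were a pseudocount of 0.1 or 5, the filter dropped or raised to 5 CPM, array weights, robust eBayes, voom on estimated reads, 3 rescalings (equal totals, quantiles, median of ratios), a replicate block, a Y-linked covariate, a minimum absolute log2 fold change of 1, and leaving out each library or both numbered 4.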

Additional observations from a re-analysis of the deposited data

Results flagged for a closer look

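In 90 sets of 4 libraries (45 named genes in each group), 9 had a library whose gap to the rest passed Dixon's 95% critical value, where chance gives about 1 in 20 sets. Among the 9 genes described, Adora2a in B6 replicate 3 was at 32.7 CPM, against 26.2 to 27.0 CPM in the other B6 libraries, and Panx1 in the same library was at 103 CPM, against 95.5 to 96.7 CPM. Both lie towards the CD103Tg values, and B6 replicate 3 is the library in which Y-linked genes were at 0 to 0.0192 CPM. Without it the log2 fold change was 0.44 for Adora2a and 0.26 for Panx1, against 0.37 and 0.23 with all libraries.

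Itgae was at 174 CPM in B6 replicate 4, against 37.5 to 51.4 CPM in the other B6 libraries. Acpp was at 10.1 CPM in CD103Tg replicate 3, against 16.8 to 17.7 CPM in the rest of that group. P2ry10 was at 51.0 CPM in CD103Tg replicate 1, against 45.3 to 46.0 CPM in the rest. B6 replicate 2 stood apart in Samhd1 (173 CPM, against 206 to 213 CPM in the others), Capn2 (106 CPM, against 120.1 to 122 CPM) and Stim2 (65.8 CPM, against 59.6 to 60.4 CPM). Nmnat2 was at 14.8 CPM in B6 replicate 1, against 11.04 to 11.2 CPM in the other B6 libraries.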

How the results depend on the processing

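Over 21 alternative fits, the 8 called genes among the 9 kept their direction and call, with a largest limma adjusted p of 0.0307 (Panx1 without CD103Tg replicate 2). The log2 fold change of Entpd1 ranged from 2.30 to 2.97, of Cd38 from 1.45 to 1.70, of Nt5e from 0.94 to 1.07, of P2rx7 from 0.59 to 0.87, of P2rx4 from -0.85 to -0.69, of Ada from 0.60 to 0.80, of Adora2a from 0.33 to 0.44 and of Panx1 from 0.19 to 0.26. Art2b ranged from -0.32 to -0.10 and passed without B6 replicate 4 and without both replicates numbered 4, which gave 2 genes lower in place of 1; the cause was not tested. A minimum absolute log2 fold change of 1 left 571 called genes (419 higher and 152 lower), 3 of the 9 genes (3 higher, 0 lower) and 4 higher and 3 lower pathway genes, by its construction. Leaving out each library in turn gave 2771 to 3583 called genes, 8 to 9 of the 9 genes (7 to 7 higher, 1 to 2 lower) and 18 to 25 higher and 13 to 21 lower pathway genes. Quantile normalization gave 1741 higher genes of 3736 and equal totals 1759 of 3609, against 2000 of 3592, with all 9 directions kept. Of 1230 refits of the other named genes, 33 lost and 10 gained a call and 0 reversed. Of the pathway lists, other ectoenzymes had 5 rises with array weights, transporters 2 rises with array weights, with no filter or without both replicates numbered 4, and purine salvage 1 fall at a minimum of 5 CPM and 4 without both replicates numbered 4. NAD genes had 2 falls with the replicate block or the Y-linked covariate, and receptors 1 fall with that covariate. The replicate numbers were not taken as pairs: same-numbered libraries correlated in their deviations from the group means at 0.221, 0.35, -0.0807 and 0.123. With the number as a block 3682 genes were called, the same 8 of the 9 genes passed and Entpd1 was at 2.73 (adjusted p = 7.85e-05). Depth limits Entpd1 and P2rx7 in B6 most, at 312 and 426 reads in the lowest library.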

Other observations

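Some further pathway genes were picked after their values were seen. Ampd1, which deaminates AMP inside the cell, was at 0.651, 0.810, 1.56 and 2.09 CPM in CD103Tg replicates 1 to 4, against 7.93, 6.16, 8.97 and 2.44 CPM in B6 replicates 1 to 4 (log2 fold change -1.63 ± 0.31, limma adjusted p = 0.0024). B6 replicate 4 was close to CD103Tg replicate 4. Ampd2, of the same family, was higher in CD103Tg (0.24 ± 0.07), as was Pnp, which acts on inosine and guanosine (0.30 ± 0.08). The stimulatory G protein gene Gnas (0.20 ± 0.06) and the kinase subunit gene Prkaca (0.27 ± 0.06) were higher in CD103Tg, and Gnai3 (-0.21 ± 0.06) and the transcription factor gene Creb1 (-0.38 ± 0.08) were lower. Art3, of the same family as Art2b, was below the filter, at 0.402 to 0.790 CPM in CD103Tg and 1.15 to 1.55 CPM in B6, with no overlap.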
